A study of Saccharomyces cerevisiae with 24 samples.

Results

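The wild-type wine yeast V5 gave 6 RNA samples, and in 3 of them the probes of chromosome X were brighter than in the other 3. The raised V5 set holds sampling points 2, 3 and 5, at 35, 25.5 and 10.5 g/L residual glucose, and the other V5 set holds points 1, 4 and 6, at 38.4, 24.4 and 7.4 g/L. These are 3 and 3 of the 12 RNA samples of the series, with 6 and 6 of its 24 arrays. The sets were chosen by the chromosome X signal itself, so every difference between them is given as a description with no test. Tests are given only for what the choice did not use, which are the slope of each gene on glucose within V5 and, off chromosome X, the comparison with the second strain. Counts of calls on chromosome X in that comparison are descriptions.

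That second strain, V5.TM6*P, lacks the hexose transporter genes HXT1 to HXT7 and takes up glucose through Tm6*, a fusion of Hxt1 and Hxt7 encoded in the genome. It was sampled at 36.5 and 34.8 g/L early, 26.3 and 25.1 g/L midway, and 13.5 and 5.6 g/L late in growth. Both strains were made prototrophic with URA3 and grew at 30 °C and pH 5 in aerated bioreactors on minimal medium. Each strain was grown in 2 independent fermentations. The labels do not say which fermentation a sample came from, so the V5 sets and the fermentations cannot be told apart, and p-values measure the spread between samples that may share a culture. Total RNA was amplified, labelled with radioactive phosphorus and hybridized to 2 filter arrays per sample.

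Genes along a budding yeast chromosome belong to unrelated pathways, and most are transcribed from a promoter of their own. The median over all probes of a chromosome therefore averages over many kinds of regulation. Chromosome X carries, among others, genes of the cytosolic ribosome, of mitochondria, of the CCT chaperonin that folds actin and tubulin, of DNA replication and of protein glycosylation.

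Signals are given as log2 of background-subtracted intensity relative to the median probe of the same array, so 0 is the median probe and 1 unit is a 2-fold difference. The 2 arrays of each RNA sample were averaged first. The array holds 6330 probes, PCR products of yeast open reading frames, and 381 of them were placed on chromosome X by the order of printing. Of these, 101 could be given a gene name. PCR products read both strands and near-identical copies, so values of overlapping genes and of gene families are uncertain. The median net intensity per array was between 12.2 and 20.3 in the raised V5 set and between 13.3 and 18.2 in the other V5 set. The correlation between the 2 arrays of an RNA sample was between 0.749 and 0.863 over all 12 samples.

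The chromosome X median was 0.50, 0.45 and 0.50 in the raised V5 samples at 35, 25.5 and 10.5 g/L. It was 0.24, 0.31 and 0.32 in the other V5 samples at 38.4, 24.4 and 7.4 g/L. The lowest sample inside the raised set thus stood at 0.45 and the highest outside it at 0.32. The set means were 0.49 ± 0.03 and 0.29 ± 0.04 (SD, n = 3 each). In the 6 samples of V5.TM6*P the chromosome X median was between 0.17 and 0.24.

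**Figure D1:**
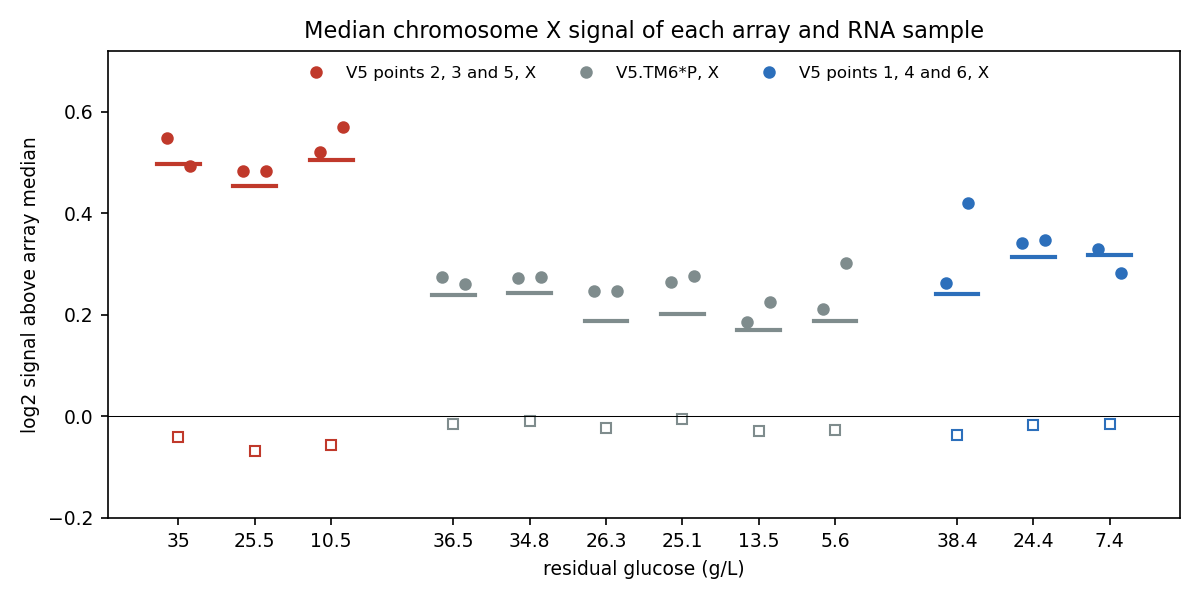
Median log2 signal of the 381 chromosome X probes, relative to the array median, at each residual glucose concentration (g/L); filled points are the 2 arrays of an RNA sample, bars the median after averaging them, and open squares the median of the other chromosomes. The 6 arrays of the raised V5 set lie between 0.48 and 0.57, and the 6 arrays of the other V5 set between 0.26 and 0.42.

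Single arrays divided the same way. They make up the sample values by which the sets were chosen, so this is a description and no further support. The 6 arrays of the raised set had chromosome X medians of 0.55 and 0.49 at 35 g/L, 0.48 and 0.48 at 25.5 g/L, and 0.52 and 0.57 at 10.5 g/L. The 6 arrays of the other set had 0.26 and 0.42 at 38.4 g/L, 0.34 and 0.35 at 24.4 g/L, and 0.33 and 0.28 at 7.4 g/L. The 2 groups of arrays did not overlap, and the nearest were 0.48 in the raised set and 0.42 at 38.4 g/L.

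Chromosome X probes are on average brighter than the rest of the array in every sample, so each V5 sample was also set against the mean of the V5.TM6*P samples probe by probe. The median chromosome X probe of the raised V5 samples exceeded that mean by 0.39, 0.37 and 0.42, and that of the other V5 samples by 0.15, 0.20 and 0.15. For the other chromosomes the same medians were 0.08, 0.04 and 0.05 in the raised set and 0.12, 0.11 and 0.08 in the other set. These values share their V5.TM6*P samples.

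Each raised sample has a neighbour in glucose from the other set. Chromosome X was higher by a median of 0.22 at 35 than at 38.4 g/L, by 0.20 at 25.5 than at 24.4 g/L and by 0.29 at 10.5 than at 7.4 g/L. The other chromosomes differed by -0.06, -0.08 and -0.05 in the same pairs. At 35 against 38.4 g/L, 68.8% of chromosome X probes and 45.2% of the probes of other chromosomes were brighter in the raised sample. Within a set the chromosome X median differed by at most 0.09 in size between any 2 samples, at -0.09 for 25.5 against 10.5 g/L.

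Off chromosome X the samples were not divided by this measure. The correlation between samples over those probes was between 0.877 and 0.913 for the 6 pairs within a set, and between 0.877 and 0.908 for the 9 pairs across the sets. These correlations share samples and a common brightness pattern, and are descriptions.

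Averaged over the samples of each set, the median chromosome X probe was 0.23 higher in the raised set than in the other V5 set. Over all probes of the array the median difference was -0.05. The medians of the 15 other chromosomes lay between -0.10 on chromosome II and -0.02 on chromosome VI. The gap between chromosome X and the other chromosomes was 0.30, a factor of 1.23. Its size depended on the processing: after normexp background correction (offset 50) and quantile normalization the median was 0.073 on chromosome X and -0.003 on the other chromosomes. The offset of 50 exceeds the median net intensity of every V5 array (at most 20.3) and shrinks log2 differences. Sizes after these steps, here and below, are therefore not on the scale of the values as reported. In 25.5% of chromosome X probes and 4.88% of probes off it all 3 raised samples were then above all 3 other V5 samples. In the values as reported, the standard error of a single chromosome X probe's difference was of similar size to the gap, with a median of 0.26.

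**Figure D2:**
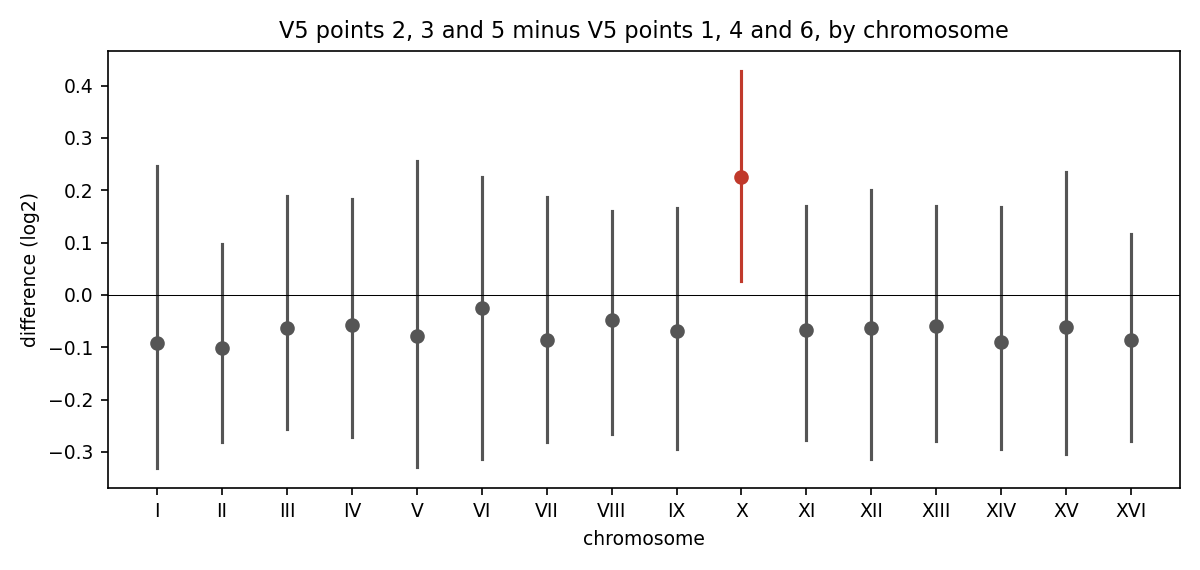
Difference in log2 signal between the raised V5 set and the other V5 set for the probes of each chromosome; points are medians and bars run between the lower and upper quartile over probes. Chromosome X has a median of 0.23 with quartiles of 0.03 and 0.43, and the other 15 chromosomes have medians between -0.10 and -0.02.

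Of the 381 chromosome X probes, 294 (77.2%) had a positive difference, against 41.9% of the 5481 probes on other chromosomes. In 73 chromosome X probes (19.2%) all 3 raised samples were above all 3 samples of the other V5 set, where 5.28% of all probes were. In 7 chromosome X probes (1.84%) all 3 raised samples were below, where 7.09% of all probes were. The choice of samples used this contrast, so nothing is read from these counts. Among other chromosomes the share with the raised set wholly above was at most 6.50%, on chromosome V, and the share wholly below was at most 9.94%, on chromosome XVI.

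The spread among probes was not wider on chromosome X than elsewhere: the SD of the differences was 0.46 over its probes and 0.51 over those of the other chromosomes. The middle of the distribution was displaced, while the quartiles of chromosome X were 0.03 and 0.43 and those of the other chromosomes -0.29 and 0.17.

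The difference was found along the whole chromosome. The left arm (223 probes) had a median of 0.20 and the right arm (158 probes) 0.23. When the probes were put in order from the left to the right end and divided into 10 stretches of 38 or 39, every stretch had a positive median. From left to right the medians were 0.26, 0.16, 0.10, 0.20, 0.20, 0.22, 0.26, 0.23, 0.23 and 0.30. The lowest, in the stretch between IRC9 and ALB1 on the left arm, had 23 of 38 probes positive, and the highest, between VPS70 and COS5 at the right end, had 30 of 38. The third stretch was also low when the raised set was compared with V5.TM6*P, with a median of 0.20, where the stretch between YJL032W and POL31 had 0.50.

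**Figure D3:**
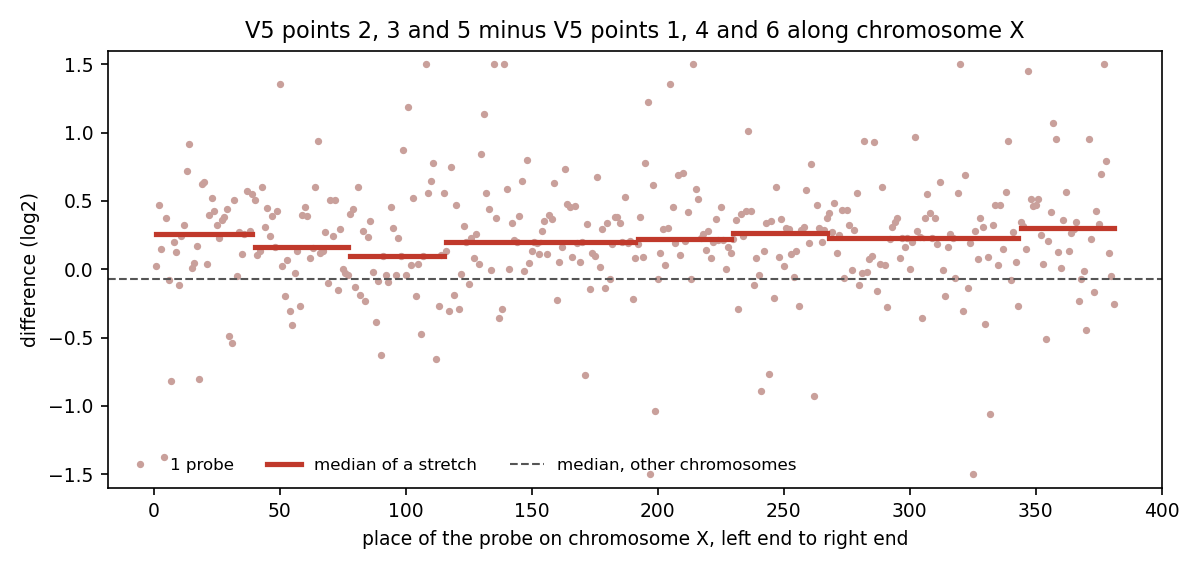
Difference in log2 signal between the raised V5 set and the other V5 set for each of the 381 chromosome X probes, in order from the left to the right end; values beyond 1.5 in size are drawn at 1.5. Red bars are the medians of 10 stretches, between 0.10 and 0.30, and the dashed line is the median of the other chromosomes, -0.07.

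Dim and bright probes of chromosome X had median differences of similar size. In 5 classes of rising mean signal the chromosome X median difference was 0.29, 0.31, 0.22, 0.20 and 0.22. Probes of other chromosomes in the same classes changed with brightness, with medians of 0.08, 0.02, -0.06, -0.11 and -0.18. The raised set was thus higher among the dimmest and lower among the brightest probes of the other chromosomes. The gap between chromosome X and the rest was present in each class. It was wider in the brightest class (0.22 against -0.18) than in the dimmest (0.29 against 0.08). In the dimmest class the SD over chromosome X probes was 0.83, and in the third class it was 0.20.

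**Figure D4:**
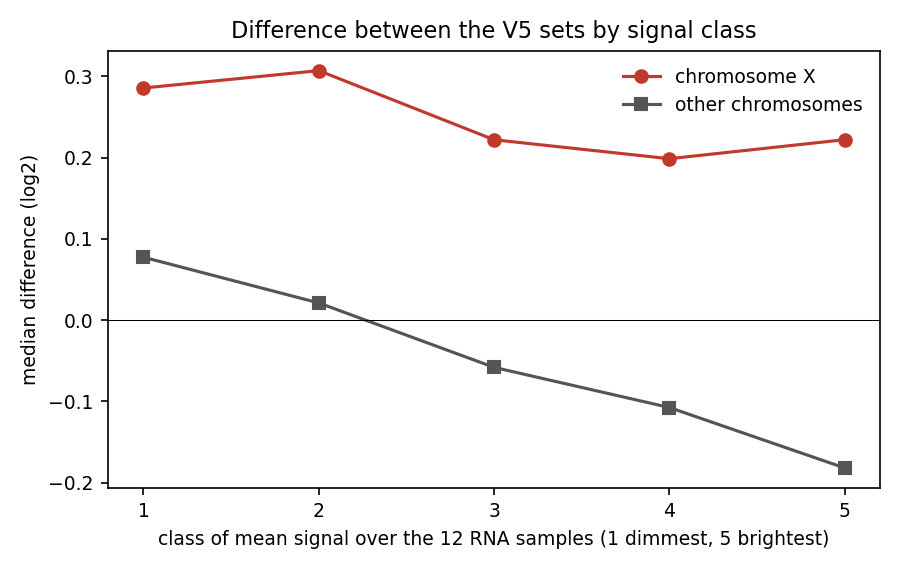
Median difference in log2 signal between the raised V5 set and the other V5 set in 5 classes of mean signal, from the dimmest (1) to the brightest (5); circles are chromosome X and squares the other chromosomes. Chromosome X lies between 0.20 and 0.31 in all classes, while the other chromosomes run from 0.08 in the dimmest to -0.18 in the brightest class.

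Local background moved with the sets in part. Its median on the arrays of the raised set was 30.5 and 26.1 at 35 g/L, 27.0 and 20.9 at 25.5 g/L, and 12.1 and 18.4 at 10.5 g/L. On the arrays of the other V5 set it was between 15.2 and 18.9. Both samples with a high background were raised, but the raised sample at 10.5 g/L had a background within or below the range of the other set and the highest chromosome X median, 0.50. In V5.TM6*P the sample at 13.5 g/L had a background of 20.9 and 31.5 and the lowest chromosome X median, 0.17. Beyond these values its part in the difference was not tested.

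The 2 arrays of each sample gave the same displacement of the chromosome but not the same ranking of its genes. From the first arrays alone the chromosome X median difference was 0.20, and from the second arrays alone 0.22. Across the 381 probes the differences from the first and the second arrays correlated at 0.05, and across the 217 probes above the array median at 0.03. On the other chromosomes these correlations were 0.01 and 0.15, so the weak agreement was not particular to chromosome X. Both arrays gave a positive difference for 206 of the 381 chromosome X probes and both a negative one for 43. For the other chromosomes these counts were 1140 and 1855 of 5481 probes. The probes share their samples, so these are descriptions. The ranking of single genes in what follows was therefore not shared by the 2 arrays. Of the 66 named genes with a difference given, 10 had the opposite sign in the authors' table and 28 others moved there by over 1.5 times.

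The 101 named chromosome X genes had a median difference of 0.25, and 90 of them were higher in the raised set. In 17 the raised set lay wholly above the other set and in 1 wholly below. These genes bear names because the study listed them for a difference between V5 and V5.TM6*P in these same samples, so they are not a neutral sample of the chromosome. The 280 chromosome X probes without a name had a median of 0.20. A total of 62 named genes were grouped in 9 lists by role, of which 55 had positive differences and 11 had the raised set wholly above. Over all chromosome X probes 77.2% were positive and 19.2% had the raised set wholly above. These shares are the background of the counts in each list below, and nothing is read from those counts.

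**Figure D5:**
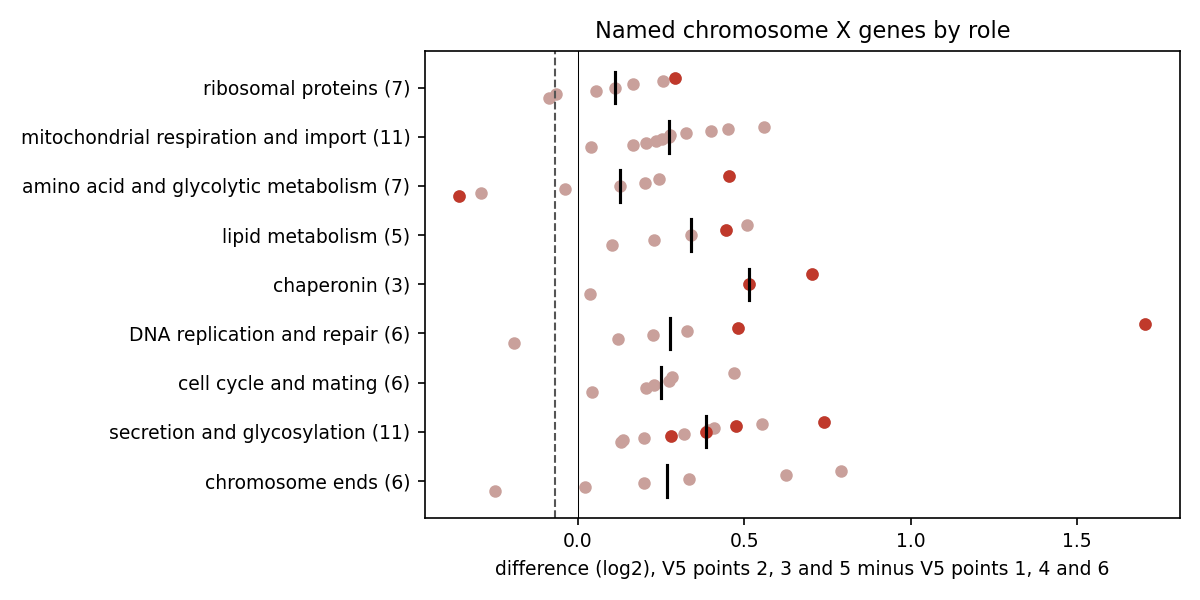
Difference in log2 signal between the raised V5 set and the other V5 set for 62 named chromosome X genes in 9 role lists, with the number of genes in brackets; dark points are genes whose sets did not overlap, black bars list medians, and the dashed line the median of the other chromosomes. List medians run from 0.11 for ribosomal proteins to 0.52 for the chaperonin.

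Of the 3 chaperonin subunits, CCT3 and CCT8 differed and CCT5 hardly did. CCT3 had 2.90, 2.96 and 2.88 in the raised V5 samples and 2.02, 2.34 and 2.27 in the other V5 samples, a difference of 0.70 ± 0.19 (limma SE, as for all differences below). The 3 raised values lay close together and above every value of the other set, and in the authors' table the difference was 0.37. CCT8 had 5.28, 5.23 and 5.02 in the raised samples and 4.53, 4.70 and 4.76 in the other samples, a difference of 0.52 ± 0.19, again without overlap, which was 0.28 from the second arrays alone. CCT5 had 3.91, 2.96 and 3.14 in the raised samples and 3.15, 3.37 and 3.38 in the other samples, and its difference of 0.04 ± 0.29 is far inside its error. The 5 named chaperone genes off chromosome X (CCT, SSA, SSB and HSP families) had a median difference of -0.10.

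The 11 genes of secretion and glycosylation were all higher in the raised set, with a median of 0.38 and 4 wholly above the other set. Of the 101 named chromosome X genes, 90 were higher and 17 wholly above. The median was 0.17 in the authors' table and 0.20 from the second arrays alone. LAS21, which adds ethanolamine phosphate to lipid anchors of proteins, had 1.65, 1.82 and 1.71 in the raised samples and 1.08, 1.14 and 0.75 in the other samples, a difference of 0.74 ± 0.20, which was 0.35 in the authors' table. MNS1, the mannosidase that trims glycans in the endoplasmic reticulum, had 2.96, 3.06 and 3.13 in the raised samples and 2.70, 2.57 and 2.45 in the other samples. Its difference was 0.47 ± 0.19 without overlap, and 0.14 in the authors' table. ATG27, a membrane protein of autophagy, differed by 0.39 ± 0.25 with overlapping sets, by -0.07 in the authors' table, and by 0.68 and 0.11 from the first and the second arrays alone. OST1, a subunit of the oligosaccharyltransferase, and PMT4, a protein O-mannosyltransferase, differed by 0.20 ± 0.23 and 0.14 ± 0.22, both within their errors.

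The 11 genes of mitochondrial respiration and import also all had positive differences, between 0.04 and 0.56 with a median of 0.27, but in none were the sets apart. The median was 0.11 in the authors' table. CYC1, cytochrome c, had 3.59, 3.00 and 3.89 in the raised samples and 3.38, 3.11 and 3.22 in the other samples, a difference of 0.25 ± 0.28. SSC1, the mitochondrial Hsp70, had 5.65, 5.41 and 5.71 in the raised samples and 5.27, 5.20 and 5.49 in the other samples, and the sets overlapped, with 5.41 the lowest raised value and 5.49 the highest of the other set. MIR1, the phosphate carrier, differed by 0.20 ± 0.25.

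Ribosomal protein genes had the lowest list median in these values. It was 0.11 for the 7 on chromosome X, with 5 positive. RPS4A had 5.91, 5.98 and 6.27 in the raised samples and 5.88, 5.80 and 5.60 in the other samples, a difference of 0.29 ± 0.21, and was the only member with sets apart. In the authors' table the difference was 0.14. RPL17B and RPS22A differed by 0.17 ± 0.22 and 0.11 ± 0.20. These genes are bright, and several have a near-identical copy on another chromosome whose messenger the probe could also bind. The 31 named cytosolic ribosomal protein genes off chromosome X had a median difference of -0.26, with 11 wholly below and 0 wholly above the other V5 set, where 7.43% of all probes off chromosome X were wholly below. That median was -0.08 after normexp correction and quantile normalization. Their median signal of 2.17 falls in the brightest of the 5 classes above, in which probes of other chromosomes had a median of -0.18.

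Among the 7 genes of amino acid and glycolytic metabolism, 4 were positive and the list median was 0.13. It was -0.10 in the authors' table, the only role list whose median changed sign under another processing. BNA3, an aminotransferase of the kynurenine pathway, had 2.92, 3.25 and 2.99 in the raised samples and 2.81, 2.69 and 2.31 in the other samples, a difference of 0.46 ± 0.22, which was 0.21 in the authors' table. HOM6, homoserine dehydrogenase, and ILV3, dihydroxyacid dehydratase, differed by 0.13 ± 0.20 and -0.04 ± 0.33. ARG3, the ornithine carbamoyltransferase of arginine synthesis, was the only named chromosome X gene with the raised set wholly below. It had 2.14, 1.99 and 1.69 in the raised samples and 2.53, 2.22 and 2.14 in the other samples, a difference of -0.36 ± 0.22, and the sets met at 2.14. In the authors' table it was -0.14. TDH2, a glyceraldehyde-3-phosphate dehydrogenase and the brightest of these genes, had 9.21, 8.90 and 8.61 in the raised samples and 9.48, 9.04 and 9.06 in the other samples, a difference of -0.29 ± 0.25.

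All 5 genes of lipid metabolism were positive, with a median of 0.34. ELO1, a fatty acid elongase, had 3.09, 3.27 and 3.46 in the raised samples and 2.64, 3.04 and 2.81 in the other samples, a difference of 0.44 ± 0.21 without overlap. The inositol-3-phosphate synthase INO1 differed by 0.51 ± 0.34, the phospholipid methyltransferase OPI3 by 0.23 ± 0.36 and the sphingoid base phosphatase LCB3 by 0.10 ± 0.21, all with overlapping sets.

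In DNA replication and repair 5 of 6 genes were positive, with a median of 0.28. TAH11, which licenses replication origins, had 1.75, 1.78 and 1.68 in the raised samples and 1.11, 1.42 and 1.22 in the other samples, a difference of 0.48 ± 0.19. DPB11, a replication initiation factor, had the largest difference of all named chromosome X genes, 1.71 ± 0.84, but it rested on 1 array. It had -0.17, -0.20 and 0.19 in the raised samples and -3.84, -0.62 and -0.84 in the other samples. At 38.4 g/L 1 of its arrays was under the floor, at -7.32, and the other was at -0.36. Without that sampling point the difference was 0.67, and in the authors' table it was 0.18. The repair gene RAD7 differed by 0.33 ± 0.22, the clamp loader subunit RFC2 by 0.22 ± 0.25, the polymerase subunit POL31 by 0.12 ± 0.27 and the single-strand binding protein RFA3 by -0.19 ± 0.24.

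The 6 genes of cell cycle and mating had differences between 0.04 and 0.47, all positive and all with overlapping sets. NNF1, a kinetochore protein, differed by 0.47 ± 0.33, STE18, the pheromone G-protein gamma subunit, by 0.23 ± 0.27, the spindle checkpoint gene MAD3 by 0.20 ± 0.21 and the nucleolar gene NET1 by 0.04 ± 0.22.

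Genes at the chromosome ends, most of them in families with copies at other ends, had differences between -0.25 and 0.79. The uncharacterised YJL206C had 2.37, 2.13 and 2.69 in the raised samples and 1.18, 1.89 and 2.24 in the other samples, a difference of 0.63 ± 0.33. HXT16, a hexose transporter homologue, differed by 0.79 ± 0.91 at signals under the array median, with 1 array under the floor in each V5 set. AAD10, a putative aryl alcohol dehydrogenase, differed by 0.33 ± 0.46 and the helicase-like YJL225C by 0.02 ± 0.19. COS5 differed by -0.25 ± 0.32, and the uncharacterised YJR124C, which lies farther from the end, by -0.27 ± 0.32.

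Off chromosome X, 261 of 5949 probes (4.39%) lay wholly above in the raised set and 442 (7.43%) wholly below. Among named probes brighter than the array median and with the sets apart, the largest positive difference was that of IDH1, a subunit of the mitochondrial isocitrate dehydrogenase. IDH1 had 0.79, 1.35 and 1.20 in the raised samples and 0.47, -0.46 and 0.14 in the other samples, a difference of 1.06 ± 0.31, which was 0.55 in the authors' table. The 2 arrays of a sample were far apart in places, with -0.16 and 1.73 in the raised sample at 35 g/L and -1.25 and 0.32 in the other sample at 24.4 g/L, and on the first arrays alone the sets overlapped. The 13 TCA cycle genes off chromosome X had a median of -0.13, and IDH1 was the only one wholly above. That median was 0.02 after normexp correction and quantile normalization. The list's median signal of 2.36 falls in the brightest class of mean signal, in which probes of other chromosomes had a median of -0.18.

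Among the other genes that were higher were the cytosolic catalase CTT1, by 0.69 ± 0.33, and the allantoicase DAL2, by 0.61 ± 0.24. CTT1 had 1.27, 1.33 and 1.80 in the raised samples and 0.17, 0.91 and 1.25 in the other samples, which nearly touch. SEG2, MRK1, SUR1, YCT1, SGS1, NFG1 and YOL013W-A were higher by 0.35 to 0.50, with standard errors of 0.18 to 0.22. In the authors' table the differences of MRK1 and YOL013W-A were -0.10 and -0.02.

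The largest negative difference given here for a named bright probe off chromosome X with the sets apart was that of ALD6, the cytosolic acetaldehyde dehydrogenase. ALD6 had 2.08, 1.91 and 2.08 in the raised samples and 2.62, 2.85 and 3.02 in the other samples, a difference of -0.81 ± 0.20. The copper transporter CTR3 had 1.00, 0.90 and 0.95 in the raised samples and 1.34, 1.58 and 2.33 in the other samples, a difference of -0.80 ± 0.29. MET22, a nucleotidase of sulphur assimilation, had 1.95, 1.89 and 2.19 in the raised samples and 2.83, 2.89 and 2.60 in the other samples, a difference of -0.76 ± 0.20. All 3 genes had raised values that lay close together and under the lowest value of the other set.

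Of the remaining genes that were lower, MRPL51 and RSM25 encode mitochondrial ribosomal proteins, RPL23B a cytosolic one, IMP1 a peptidase of the mitochondrial inner membrane and MDM35 a protein of the intermembrane space. Together with ZEO1 and YER137C-A they had differences between -0.74 for ZEO1 and -0.61 for MDM35. For IMP1 the difference was 0.01 in the authors' table. Of the 40 named mitochondrial ribosomal protein genes off chromosome X, 5 were wholly below and 0 wholly above, with a median of -0.14, which was -0.03 after normexp correction and quantile normalization. Of the 30 respiratory chain genes, 2 were wholly below and 0 wholly above, with a median of -0.20, which was -0.06 after the same steps. These lists had median signals of 1.58 and 2.04. Probes of other chromosomes in the same classes of mean signal had medians of -0.11 and -0.18. The 8 proteasome genes and the 5 genes of glycolysis and fermentation had medians of -0.03 and -0.01 with 0 wholly above or below, and these medians were 0.05 and 0.13 after normexp correction and quantile normalization. Over all 935 named probes off chromosome X, 23 were wholly above and 81 wholly below, with a median of -0.10.

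Whether V5 genes follow glucose was tested with the set as a term in the fit, which the choice of sets did not use. No probe had an adjusted p under 0.05 (limma, Benjamini-Hochberg over 6330 probes, 0% called, smallest adjusted p = 0.25), and 794 probes (12.5%) had an unadjusted p under 0.05. The count depended on the processing, with 187 probes called after normexp correction and quantile normalization and 183 when probes under the array median were left out. In the fit as reported, 40 of 381 chromosome X probes (10.5%) had an unadjusted p under 0.05 (limma). The smallest p among named probes belonged to GLK1, glucokinase, whose slope was -0.085 ± 0.007 log2 units per g/L (SE). GLK1 had 0.43, 1.04 and 2.55 in the raised samples at 35, 25.5 and 10.5 g/L and -0.32, 0.81 and 2.25 in the other samples at 38.4, 24.4 and 7.4 g/L. Each set thus ran upward as glucose fell.

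HXK1, the hexokinase induced as glucose runs out, had 2.75, 2.91 and 5.62 in the raised samples and 1.32, 3.32 and 5.36 in the other samples, a slope of -0.127 ± 0.014. EMI2, a hexokinase homologue, and SFA1, a formaldehyde and alcohol dehydrogenase, had slopes of -0.064 ± 0.010 and -0.042 ± 0.007. HXT15, a hexose transporter homologue, had a slope of 0.082 ± 0.011 at signals under the array median, with 1 array at 7.4 g/L under the floor, and the slope was -0.058 in the authors' table. None of these 5 slopes passed the adjusted threshold (adjusted p = 0.25 for GLK1 and 0.33 for the others).

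The slope was also compared between the sets. No probe passed (0% called, limma, smallest adjusted p = 0.33), 354 probes (5.59%) had an unadjusted p under 0.05, and 19 of 381 (4.99%) did on chromosome X. With 3 samples in each set the fit leaves few degrees of freedom. For GLK1 the slopes differed by -0.005 ± 0.016 and for HXK1 by 0.007 ± 0.032 (raised minus other set, log2 units per g/L, SE).

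The comparison of V5.TM6*P with each V5 set used all 12 RNA samples in 1 limma fit, and both comparisons share the V5.TM6*P samples. Against the raised V5 set, 426 probes (6.73%) were called at an adjusted p under 0.05, 136 (2.15%) lower and 290 (4.58%) higher in V5.TM6*P. Against the other V5 set, 418 probes (6.60%) were called, 171 (2.70%) lower and 247 (3.90%) higher. The split turned without probes under the array median, where 421 were lower and 354 higher in V5.TM6*P against the other set (45.7% higher, against 59.1% with all probes), and 276 lower and 416 higher against the raised set. Of the 381 chromosome X probes, 56 (14.7%) were called lower and 5 (1.31%) higher in V5.TM6*P against the raised set. Against the other set, 16 (4.20%) were called lower and 14 (3.67%) higher. Off chromosome X, 80 probes (1.34%) were called lower against the raised set and 155 (2.61%) against the other set. The V5 sets were chosen by chromosome X, so these counts describe what that choice does to the strain comparison. The median chromosome X difference was -0.35 for V5.TM6*P minus the raised set and -0.16 for V5.TM6*P minus the other set. With any sampling point left out of both strains, and so fewer samples in the fit, both total counts were lower. The lowest were 137 probes against the raised set, without point 3, and 49 against the other set, without point 4.

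The calls on chromosome X are described by role. Over all 62 genes in role lists, 27 were called lower and 3 higher in V5.TM6*P against the raised set. Against the other set, 11 were called lower and 9 higher. Of all chromosome X probes, 14.7% were called lower against the raised set and 4.20% against the other set, and 1.31% and 3.67% higher. Of the 11 chromosome X genes of secretion and glycosylation, 10 were called lower in V5.TM6*P against the raised set and 3 against the other set. Of the 11 mitochondrial genes of chromosome X, 3 were called higher and 1 lower against the raised set, and 8 higher and 0 lower against the other set. CYC1 was 0.99 higher in V5.TM6*P than in the raised set and 1.25 higher than in the other set. TAH11 was -0.54 against the raised set and -0.06 against the other set. The choice of sets moves all these values, and the genes were listed by the study for a strain difference in the same samples, so nothing is read from them.

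For the partner lists off chromosome X, the counts of both comparisons are given side by side, and the difference between them was not tested. Of 30 respiratory chain genes, 27 were called higher in V5.TM6*P against the raised set and 25 against the other set. Of 13 TCA cycle genes, 12 and 13 were called higher. Of 40 mitochondrial ribosomal protein genes, 27 were called higher against the raised set and 18 against the other set. Of 31 cytosolic ribosomal protein genes, 2 were called lower in V5.TM6*P against the raised set and 15 against the other set. The median difference between the V5 sets was negative in all 4 of these lists. It was -0.26 for cytosolic ribosomal proteins, -0.20 for the respiratory chain, -0.14 for mitochondrial ribosomal proteins and -0.13 for the TCA cycle. In the same order the lists had median signals of 2.17, 2.04, 1.58 and 2.36. Probes of other chromosomes had medians of -0.11 in class 4 of mean signal, which holds 1.58, and -0.18 in class 5. Whether the lists differ from probes of like brightness was not tested. The background of the counts of calls is 4.58% higher and 2.15% lower against the raised set, and 3.90% higher and 2.70% lower against the other set, over all probes. Genes in these lists bear names because the study listed them for a strain difference in the same samples, so nothing is read from the height of the counts. Of all 935 named probes off chromosome X, 239 were called higher and 63 lower against the raised set. Against the other set, 199 were called higher and 121 lower.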

How the data were processed

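The deposited scanner files hold median spot and local background intensity in linear units, as the authors measured them from phosphor screens. The deposited table of the series holds background-subtracted intensity rescaled by the authors in a way not given in the sources used here, with scale unknown. Background was subtracted from the scanner values, values under 0.1 were set to 0.1 (1.49% of values), log2 was taken, the 2 spots of 1147 probes were averaged, each array was centred on its median and both arrays of an RNA sample were averaged. Files carry no gene names: 1036 probes were named by recomputing the study's fold changes and mean levels from the authors' table and matching its gene lists, and 5862 were placed on a chromosome by print order. Of 841 exact matches 829 follow that order, as do all 101 on chromosome X, and symbols were updated from the RefSeq table.

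Sets were chosen by chromosome X signal, and members and lists were chosen with earlier results of these data known. Genes named are, on chromosome X, up to 4 of each role list with the highest mean signal and the 5 largest and 5 smallest differences; off it, the 10 largest differences in each direction among bright named probes with sets apart; and the 5 smallest slope p. Other named genes only mark stretches. Some genes that this rule names are not reported here, but stay in the counts. Fits used limma 3.58.1 in R 4.3.3 with Benjamini-Hochberg adjustment over 6330 probes and a threshold of 0.05, and were tested on simulated data with 200 changed probes per comparison. Tables and figures used Python 3.11.15, numpy 2.4.6, pandas 2.3.3 and matplotlib 3.10.9. The number of arrays limits the precision. Alternatives changed the floor, source, background correction and normalization, centring, arrays, dim probes, covariates and sampling points.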

Additional observations from a re-analysis of the deposited data

Results flagged for a closer look

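In 6 of 67 groups of V5.TM6*P samples looked at (66 named genes and the chromosome X median), 1 sample stood far from the other 5, where chance gives about 5%. OPI3 had 1 sample at 4.35 above the rest. HXT16, CTT1, SGS1, YCT1 and ALD6 had 1 sample below the rest, at -3.54, -0.64, -0.62, 4.85 and 2.96. These samples enter no difference between the V5 sets.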

How the results depend on the processing

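The sets were chosen by the chromosome X signal, so the sign of its median difference follows from that choice and is given as a description. That difference was positive in every alternative and lay between 0.20 and 0.25 with each sampling point left out. It was 0.073 after normexp correction (offset 50), which shrinks log2 differences, followed by quantile normalization, where the other chromosomes had -0.003. After those steps 97 chromosome X probes (25.5%) and 290 probes off it (4.88%) lay wholly above in the raised set. With probes under the array median left out, 44 chromosome X probes (20.3%) and 62 other probes (2.17%) did. With a sampling point left out the counts ranged from 89 to 114 on chromosome X, and off it from 445 to 547 above and from 679 to 894 below, since fewer samples have to be apart.

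Glucose slopes were called for 187 probes after normexp and quantile normalization and for 183 with dim probes left out, and for 0 in the other alternatives, each point left out included. The difference of the slope between the sets had 0 calls in all alternatives.

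Calls of V5.TM6*P against the raised and the other V5 set numbered 761 and 689 with normexp and quantile normalization, 692 and 775 without dim probes, 174 and 114 with the first arrays, and 193 and 165 with the second arrays. With normexp 52.2% of calls against the raised set were higher in V5.TM6*P, against 68.1% in the fit as reported. With the authors' values, 629 probes were called against the other set. With a point left out of both strains the counts ranged from 137 to 324 against the raised set (189, 137 and 212 without points 2, 3 and 4) and from 49 to 343 against the other set (84, 217, 49 and 237 without points 1, 3, 4 and 6). The deviations of same-numbered samples of the strains correlated weakly, between 0.007 and 0.045. The highest correlation with a differently numbered sample was between -0.010 and 0.016, and was the larger only at point 5 (0.013 against 0.007). Whether the numbers pair the samples is not settled by these values. With the sampling point as a replicate block 0 probes were called against either set, where 805 and 981 had an unadjusted p under 0.05 (limma).

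With the authors' values, 10 of 66 named differences turned sign, those of genes with overlapping sets such as ATG27, at -0.066, included. Of genes with the sets apart, IMP1, MRK1 and YOL013W-A did, at 0.0094 for IMP1, -0.095 for MRK1 and -0.024 for YOL013W-A, as did the HXT15 slope, at -0.058. Of 71 gene values, 51 kept within 1 SD of the value as reported with the authors' values and 44 with normexp and quantile normalization. With a sampling point left out, between 1 and 7 of the 66 differences turned sign, among them AAD10 (-0.0045 without point 2), CCT5 (-0.25 without point 2) and COS5 (0.05 without point 3), all with overlapping sets. Dim probes are limited by the signal over background. The cause of these changes was not tested.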
